A study of Mus musculus with 3 samples.

Results

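Differentiating cardiomyocytes of the cardiac crescent were picked out of whole mouse embryos by the transcripts that each captured cell held. A barcode marks the RNA of 1 droplet and stands for 1 cell, and each unique molecular identifier (UMI) stands for 1 captured transcript. Barcodes passed quality control (QC) if they held 1500 to 8500 genes (at most 7500 in replicate 2) and at most 10% mitochondrial UMIs. A QC barcode was taken as a cardiomyocyte if it held a UMI of at least 3 of the 6 genes Myl7, Myl4, Tnnt2, Nkx2-5, Actc1 and Ttn, at least 2 UMIs of Myl7 and Tnnt2 together, no UMI of Foxa2 or Sox2 and at most 1 UMI of Kdr. This gate kept 874 of 22168 QC barcodes. The cardiomyocytes were 252 of 6129 barcodes in replicate 1, 374 of 8116 in replicate 2 and 248 of 7923 in replicate 3. These are shares of 4.11% (exact 95% interval 3.63 to 4.64), 4.61% (4.16 to 5.09) and 3.13% (2.76 to 3.54), with a mean of 3.95% ± 0.752 (SD, n = 3 embryos). The intervals cover counting error only, and that of replicate 3 lay below both others.

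The 3 embryos were wild-type (WT) males of the C57BL/6 x 129 SvEv background at embryonic day 8, selected at 0 to 1 somite, although one label field allows up to 2 somites. All 3 belong to 1 group with no treatment and no other genotype, so comparisons were made between classes of cells within the embryos. Extraembryonic tissue was removed, each whole embryo was dissociated without any sort for heart cells, and 1 droplet library was made per embryo. The cardiomyocytes held a median of 26862.5, 14258 and 17155 UMIs in replicates 1, 2 and 3, against 26697, 14465.5 and 16210 in all other QC barcodes, so depth differed between embryos much more than between classes within an embryo. The libraries shared 22, 18 and 19 barcode sequences by pair, none of them among the cardiomyocytes.

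The cardiac crescent is the first heart-forming tissue of the mouse, an arc of mesoderm under the head folds that later closes into a beating tube. Cells of the first heart field differentiate there and assemble sarcomeres, in which myosin pulls on actin under the control of the calcium-sensing troponins. The second heart field lies behind and medial to the crescent, stays undifferentiated for longer under Tbx1 and Isl1, and adds cells to the tube as it grows.

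The gate genes were read as a description, since they chose the cells. Myl7, the atrial myosin light chain that marks all early heart muscle, stood at 745, 1287 and 647 CPM (UMIs of the gene scaled to a fixed total per sum) in the summed cardiomyocytes of replicates 1, 2 and 3, and at 44.2, 44.5 and 50.4 CPM in all other QC barcodes. Tnnt2, cardiac troponin T, stood at 195, 451 and 177 CPM. Myl4, the embryonic myosin light chain, stood at 146, 321 and 110 CPM. Replicate 2 was the highest of the 3 embryos for each of these. Actc1, cardiac actin, stood at 79.6, 300 and 61.9 CPM, and Ttn, the giant spring protein titin, at 47.1, 182 and 27.4 CPM. Nkx2-5, the homeobox factor of heart progenitors, was more even at 71.9, 88.3 and 68.2 CPM. All 5 marker genes that name the cell type were thus present in the summed cells of every embryo. Per cell, Myl7 was seen in 99.3% of the 874 cardiomyocytes, Tnnt2 in 87.0%, Myl4 in 77.6%, Nkx2-5 in 61.0%, Actc1 in 52.4% and Ttn in 40.3%.

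**Figure D1:**
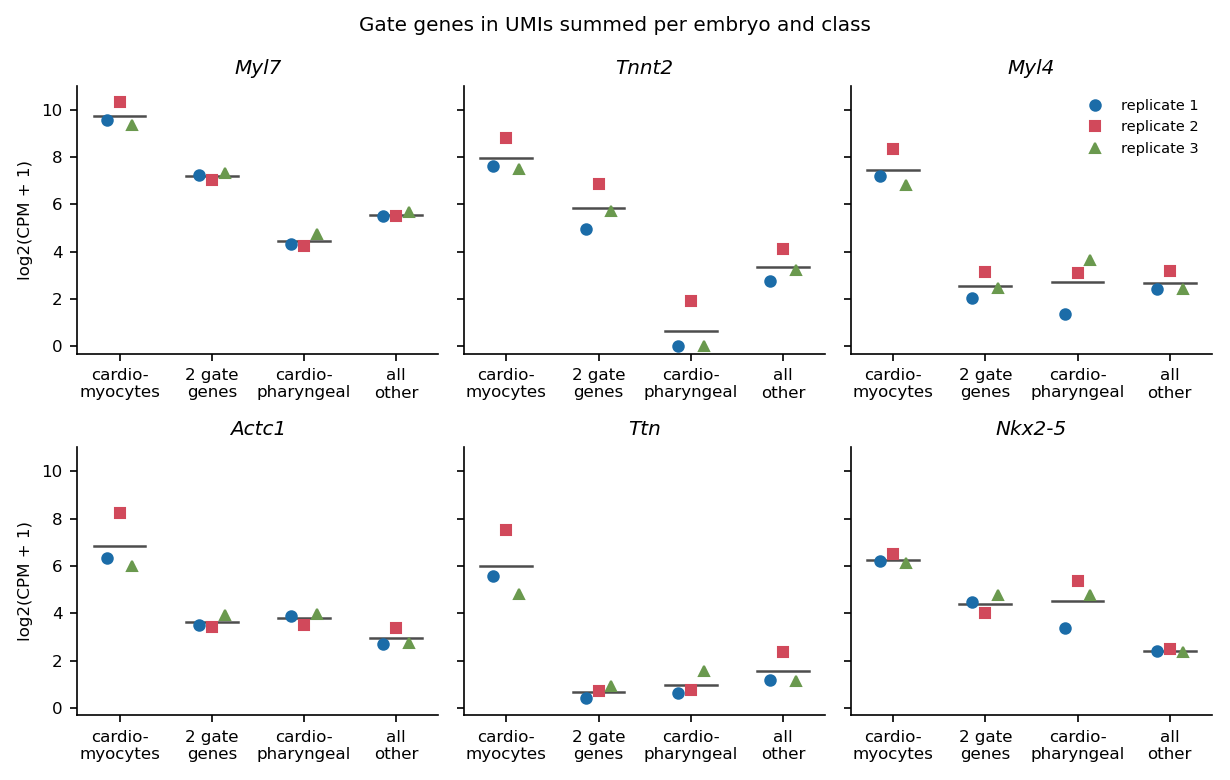
Level of the 6 gate genes, as log2(CPM + 1), in UMIs summed per embryo over the cardiomyocytes, the barcodes with exactly 2 gate genes, the cardiopharyngeal cells and all other QC barcodes. Points are the 3 embryos and bars their means. Replicate 2 is the highest of the cardiomyocyte sums for all 6 genes.

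UMIs of these genes were also found in barcodes that should lack them. Barcodes with at least 2 UMIs of Sox2 and a UMI of Pou3f1, genes of the neural plate, should lack heart transcripts, yet 46.6% of these 4128 barcodes held a UMI of Myl7 and 6.78% met the positive part of the gate, at a median of 30059 UMIs against 19533.5 in the cardiomyocytes. After each barcode was thinned at random to 5000 UMIs, 0.775% of all neural plate barcodes met it. Of the cardiomyocytes, which all met it before thinning because it chose them, 51.3% did (1 cardiomyocyte was too shallow to thin). These 2 shares start from unlike sets, so the gap between them is partly fixed by the choice of cells. Of 829 barcodes with 50 or more globin UMIs, which were found in replicates 2 and 3 only, 9.89% held a UMI of Myl7 and 0 met the positive part (exact 95% upper bound 0.444%), at a median of 15890 UMIs. Summed, Myl7 stood at 37.7, 60.3 and 55.2 CPM in the neural plate barcodes of replicates 1, 2 and 3 and at 6.89 and 9.51 CPM in the globin barcodes of replicates 2 and 3, so its level differed between classes of the same library. Over all classes 1541 QC barcodes met the positive part. Sox2 stopped 476 of them, Kdr 225 and Foxa2 139, with overlap between the 3, which left the 874. Whether such UMIs came from free RNA, doublets or low expression was not tested, nor how many members with 3 gate genes hold them.

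Just outside the gate lay 569 barcodes with exactly 2 gate genes that met every other condition. Their median was 4 UMIs of Myl7 and Tnnt2 together, and just inside the gate the 336 cells with exactly 3 genes had a median of 6. Beyond them, 216 cells held 4 gate genes with a median of 12.5 of these UMIs, 155 held 5 genes with 26, and 167 held all 6 with 69. Depth did not run in the same order, with pooled medians of 21673.5, 20625.5, 16216 and 18200 UMIs for 3, 4, 5 and 6 genes. The pooled medians mix embryos of different depth, and 104 of the 167 cells with 6 genes came from replicate 2. Within embryos, cells with 3 and with 6 genes had medians of 27027 and 29293 UMIs in replicate 1. The same medians were 15030 and 13480 in replicate 2 and 18380 and 17045 in replicate 3. The share of cardiomyocytes with all 6 genes was 16.3% (exact 95% interval 11.9 to 21.4) in replicate 1, 27.8% (23.3 to 32.6) in replicate 2 and 8.87% (5.64 to 13.1) in replicate 3. Replicate 2 had the highest share at the lowest depth, and when the gate was applied to counts thinned to 5000 UMIs the shares were 7.34%, 20.6% and 3.05% of 109, 277 and 131 barcodes. Of these, 11, 33 and 25 were not members before thinning, and without them the shares were 6.12%, 20.9% and 2.83%, with the embryos in the same order. Replicate 2 stood apart from the other embryos, and many of the results that changed without it are given without it as well.

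**Figure D2:**
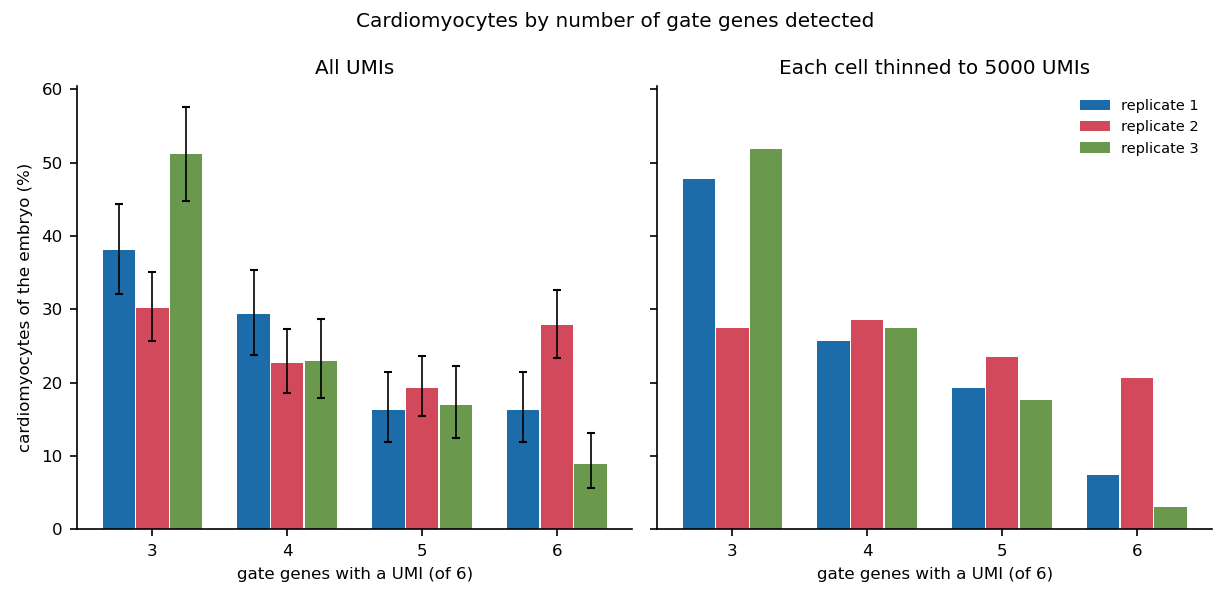
Percent of each embryo's cardiomyocytes with 3, 4, 5 or 6 gate genes detected, from all UMIs (left, with exact 95% binomial intervals) and of the barcodes that met the gate on counts thinned to 5000 UMIs, whether members before or not (right, no intervals drawn). Replicate 2 has the highest share with all 6 genes in both panels, 27.8% and 20.6%.

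The promoters of 3 gate genes are shown because these genes chose the cells and mark the cell type. Sequences are from RefSeq on GRCm38.p6 (the mm10 build of the counts), 250 bases upstream of a listed RefSeq start on the strand of the gene, gene positions are those of RefSeq, and capitals mark matches to the motifs named. Myl7 (gene at chr11:5896637-5898782, minus strand) has its window at chr11:5898783-5899032, with an MCAT site followed by a CArG box. Actc1 (chr2:114047282-114052875, minus strand) has its window at chr2:114052876-114053125, with a CArG box; the GENCODE vM21 model of Actc1 reaches to 114053548 and holds this window. Tnnt2 (chr1:135836315-135852268, plus strand) is shown for the first of its 2 listed starts, with the window at chr1:135836084-135836333, whose last 19 bases lie within the RefSeq gene, an AGATAA match read on the other strand and an MCAT site.
Myl7: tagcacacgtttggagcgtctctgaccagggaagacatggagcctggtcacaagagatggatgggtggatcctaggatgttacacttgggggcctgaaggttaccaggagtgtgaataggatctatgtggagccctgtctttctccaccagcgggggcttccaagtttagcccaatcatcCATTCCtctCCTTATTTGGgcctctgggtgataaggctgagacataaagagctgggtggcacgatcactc
Actc1: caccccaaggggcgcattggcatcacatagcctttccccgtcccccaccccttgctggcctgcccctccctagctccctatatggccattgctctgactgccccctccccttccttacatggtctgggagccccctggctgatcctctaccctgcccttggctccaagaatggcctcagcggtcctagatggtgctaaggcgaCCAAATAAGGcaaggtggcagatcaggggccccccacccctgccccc
Tnnt2: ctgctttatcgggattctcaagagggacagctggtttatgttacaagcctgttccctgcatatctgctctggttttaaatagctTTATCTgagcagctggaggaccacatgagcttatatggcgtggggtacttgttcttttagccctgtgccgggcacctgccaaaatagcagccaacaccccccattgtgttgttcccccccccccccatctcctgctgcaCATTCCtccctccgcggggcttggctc
Motifs were searched on both strands, except that the TATA box (TATAAA) was searched on the strand of the gene only. The CArG box (bound by serum response factor, the partner of myocardin) was found in 6 of the 31 listed sarcomere genes that have a promoter in the table (19.4%) and in 1.62% of all 27025 genes with one. The MCAT site (CATTCC, bound by TEAD factors) was found in 12 of 31 (38.7%, against 14.4% of all genes) and the MEF2 site in 5 of 31 (16.1%, against 3.42%). The GATA site (AGATAA) was found in 5 of 31 (16.1%, against 11.4%), the NK2 site (TNAAGTG) in 3 of 31 (9.68%, against 11.4%) and the TATA box in 1 of 31 (3.23%, against 8.94%). Among 22 of these genes that were called higher against all other barcodes, as given below, the MEF2 site was found in 2 (9.09%). In the same 22, the CArG box was found in 4 (18.2%), the MCAT site in 10 (45.5%) and the GATA site in 3 (13.6%). The NK2 site was found in 3 (13.6%) and the TATA box in 1 (4.55%). A gene was counted if any of its listed starts held the letters, and a match is not evidence that the factor was bound there.

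Against all other QC barcodes, most listed genes of the sarcomere, many listed heart transcription factors and the ligands Bmp2, Bmp4, Bmp5 and Wnt2 were higher in the cardiomyocytes. Markers of endoderm, neural ectoderm and the left-right organizer were lower, and most listed genes of the cell cycle did not pass the test. UMIs were summed per embryo and class, so that the embryo is the replicate, and the 3 sums of each class entered a quasi-likelihood test in edgeR, called at a Benjamini-Hochberg adjusted p of 0.05. Of 15763 genes tested, 1360 were higher in the cardiomyocytes (8.63%) and 1648 were lower (10.5%), and 19.1% were called in either direction. With the embryo as a block the counts were 2554 and 2672. Without replicate 1 they were 1043 and 1224, without replicate 2 they were 627 and 798, and without replicate 3 they were 565 and 500. The 9 genes of the gate were fitted with the rest and are in these counts, but they are described with no test and left out of the list counts. List counts of this comparison stand beside the 8.63% and 10.5% over all genes. Because a heart muscle cell was chosen by heart muscle genes, the p of a gene that varies with them is not independent evidence of the cell type. The same holds for lower genes of the cells that the gate left out by Foxa2, Sox2 and Kdr.

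Of the sarcomere list, 34 of 38 genes were tested, and 27 were higher and 0 lower, with a median log2 fold change of 3.03 beside -0.02 for all genes tested. Without replicate 2 they were 23 and 0 (median 2.49). Tnnc1, the cardiac troponin C that binds calcium, stood at 62.7, 162 and 58.1 CPM in the cardiomyocytes of replicates 1, 2 and 3 and at 4.65, 9.93 and 5.24 CPM in the other barcodes. Its log2 fold change was 3.90 ± 0.46 (SE, adjusted p = 0.000705), the classes did not overlap, as was so for 12.9% of all genes tested in the higher direction, and replicate 2 was again the highest (3.64 without it). Tnni1, the slow skeletal troponin I that serves the embryonic heart, stood at 88.3, 193 and 81.3 CPM against 10.1, 14.8 and 11.2 CPM (log2 fold change 3.39 ± 0.34, adjusted p = 0.000289, and 3.02 without replicate 2). The troponin I of the adult heart, Tnni3, was at 2.09, 2.99 and 1.33 CPM against 0.990, 3.83 and 2.13 CPM and did not pass. Of the troponin I genes, the one of the embryonic heart differed between the classes and the one of the adult heart was not shown to.

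Other called genes of the list included members of the thin filament, the Z-disc and chaperones. Nebl, the nebulette of the Z-disc, was higher by 4.13 ± 0.28 (log2, adjusted p = 4.86e-05), and the Z-disc proteins Csrp3 and Nexn by 4.99 and 3.14. Csrp3 stood at 23.7, 56.6 and 18.5 CPM against 0.490, 1.78 and 1.01 CPM. Unc45b, the chaperone that folds myosin, was higher by 5.30, and Cryab, a small heat shock chaperone of desmin and actin, by 2.87. Tpm1, the tropomyosin along the thin filament and the most abundant gene of the list, stood at 907, 1270.3 and 936 CPM against 379, 362 and 415 CPM, a log2 fold change of 1.49. Ldb3, a Z-disc adaptor, was higher by 4.80 but stayed at 4.96, 7.96 and 2.10 CPM. Acta2, a smooth muscle actin known to be used by the early heart, stood at 89.7, 403 and 182 CPM against 15.6, 46.5 and 30.5 CPM, and Tagln, the actin-binding transgelin, was higher by 2.51. Both lost the call without replicate 3 (adjusted p = 0.0911 and 0.057).

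The myosin heavy chains and the light chain Myl3 were highest in replicate 2. Myh6, the alpha heavy chain, stood at 5.35, 21.2 and 2.48 CPM and Myh7, the beta heavy chain, at 10.7, 25.6 and 5.33 CPM. Both were higher than in other barcodes (log2 fold change 3.47 and 3.33). Without replicate 2 the value of Myh6 was 2.17 and no longer passed (adjusted p = 0.0543), without replicate 1 it was 4.06, and that of Myh7 was 2.66 without replicate 2. These neighbouring genes are close copies, as are the actin genes, and how reads that fit both were counted is not given in the sources used here, so their split is uncertain. Myl3, the ventricular essential light chain, stood at 3.52, 31.1 and 2.67 CPM against 2.62, 4.35 and 1.87 CPM and did not pass (log2 fold change 2.16, adjusted p = 0.0879), although it did with the embryo as a block, and its value was 0.51 without replicate 2. Ankrd1, a titin-associated stress protein, was at 3.78, 36.4 and 0.381 CPM, so that most of its UMIs came from replicate 2. Its log2 fold change was 5.27, it was 4.16 without replicate 2, and it did not pass without replicate 3 (adjusted p = 0.0656). Myl2, the ventricular regulatory light chain, stood at 5.09, 4.41 and 4.19 CPM against 3.88, 2.55 and 3.57 CPM and passed with the block. Myoz2 and Xirp2 had 0 UMIs in the cardiomyocytes.

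**Figure D3:**
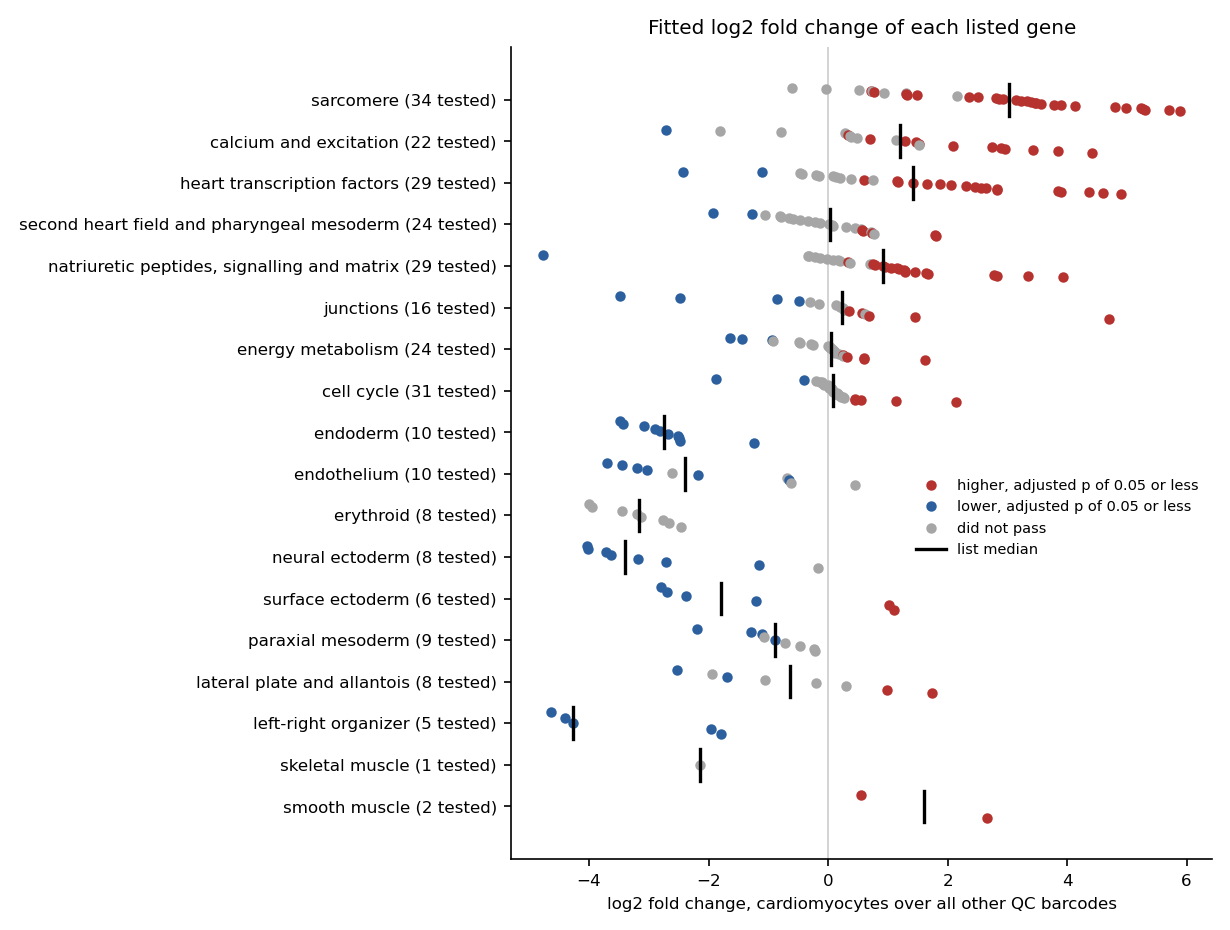
Fitted log2 fold change of each tested gene outside the gate, cardiomyocytes over all other QC barcodes, by gene list (8 lists of heart biology above, 10 lists of markers of other cell types below). Red and blue points passed an adjusted p of 0.05 in edgeR's quasi-likelihood test, grey points did not, the black line is the list median, and Cacna1h and Mb, at 0 UMIs in cardiomyocytes, are not drawn. The sarcomere median lies at 3.03, and the medians of most lists of other cell types lie below 0.

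Genes of calcium handling and excitation were mostly higher or not detected. Of 28 listed genes 22 were tested, and 12 were higher and 2 lower (median 1.21), beside 8.63% and 10.5% of all genes tested. The counts were 9 and 1 without replicate 2, and 9 and 0 without replicate 3. Ryr2, the calcium release channel of the sarcoplasmic reticulum, stood at 50.2, 44.4 and 34.7 CPM against 1.84, 2.34 and 2.17 CPM (log2 fold change 4.41 ± 0.17, adjusted p = 2.93e-06). Its classes did not overlap, as was so for 12.9% of all genes tested in the higher direction. Unlike Tnnc1 and Tnni1, Ryr2 was not highest in replicate 2. Popdc2 and Bves, cyclic AMP-binding membrane proteins of the pacemaker and myocardium, were higher by 3.42 and 2.96. Jph2, which ties the reticulum to the cell membrane, was higher by 3.84 at 6.26, 9.95 and 3.24 CPM. Hcn4, the pacemaker channel that marks the first heart field, stood at 6.13, 8.53 and 4.38 CPM against 1.22, 0.894 and 0.871 CPM (log2 fold change 2.74 ± 0.29, adjusted p = 0.000373). Slc8a1, the sodium-calcium exchanger, stood at 2.09, 5.26 and 1.90 CPM, with a log2 fold change of 2.89 that was 2.25 without replicate 2. Atp2a2, the SERCA2 calcium pump found in many cell types, was higher by 0.70. Its muscle-restricted regulators Pln and Sln had at most 1 UMI in any embryo, and Trdn, Kcnj2, Kcnq1 and Cacna1h had 0.

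Most of the transcription factors known to build the heart were higher together. Of 29 tested genes, 18 were higher and 2 lower, with a median log2 fold change of 1.42, beside 8.63% and 10.5% of all genes tested. The counts were 16 and 3 without replicate 2. Myocd, myocardin, the coactivator of serum response factor at CArG boxes, stood at 58.7, 64.3 and 45.3 CPM against 1.88, 1.90 and 2.06 CPM (log2 fold change 4.91 ± 0.15, adjusted p = 1.02e-06). Tbx5, the T-box factor of the first heart field, stood at 54.8, 46.6 and 38.9 CPM against 1.82, 2.05 and 2.16 CPM (4.60 ± 0.15, adjusted p = 1.18e-06). Mef2c, a MADS-box activator of muscle genes, stood at 406, 330 and 294 CPM against 18.8, 14.7 and 18.2 CPM (4.37 ± 0.14, adjusted p = 1.18e-06). None of these 3 factors overlapped between the classes, as was so for 12.9% of all genes tested in the higher direction. The spread of the 3 factors between embryos was small beside the gap. The GATA factors followed with Gata5 at 3.89, Gata6 at 2.31 and Gata4 at 1.87 on the log2 scale. Tbx20 (2.57), Hand2 (2.83), the BAF chromatin subunit Smarcd3 (2.65) and Mab21l2 (3.85) were higher as well. Hand1, the basic helix-loop-helix factor of the left ventricle and of extraembryonic mesoderm, stood at 148, 256 and 210 CPM against 80.7, 92.6 and 115 CPM (1.15), but its call was lost without replicate 2 (adjusted p = 0.0666). The mean level of Hand1 in cells with all 6 gate genes, given below, lay under its level in the other barcodes. Hopx, which acts later in heart muscle, was lower by 2.43 at 0.783, 0.995 and 1.33 CPM, and Mesp1, the factor of the earliest cardiac mesoderm, fell by 1.10 on the same scale.

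The signalling list held 18 higher genes and 1 lower among 29 tested (median 0.92), beside 8.63% and 10.5% of all genes tested. The counts were 15 and 1 without replicate 2. Sfrp5, a secreted Wnt inhibitor of the heart-forming region, stood at 105, 92.7 and 69.9 CPM against 7.12, 6.13 and 4.94 CPM (log2 fold change 3.94 ± 0.18, adjusted p = 7.27e-06). Wnt2, a ligand made by the early heart, stood at 65.9, 62.4 and 57.5 CPM against 6.93, 5.94 and 6.24 CPM (3.34 ± 0.10, adjusted p = 1.02e-06). A Wnt ligand and a Wnt inhibitor were thus high in the same summed cells. Of the BMP ligands, which induce heart mesoderm, Bmp5 was higher by 2.77, Bmp2 by 1.64, Bmp4 by 1.45, and the BMP feedback inhibitors Smad6 and Smad7 by 1.28 and 0.96. Vcan and Has2, which make the jelly between heart muscle and endocardium, were higher by 1.67 and 1.29. Nppa and Nppb, the natriuretic peptides of working myocardium, and Bmp10, the ligand of trabeculae, had less than 1 CPM in every embryo. Nodal, the left-side signal, had 1 UMI in replicate 1 and 0 in the others, and was called lower.

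Cell junction genes moved in both directions. Of 16 tested genes, 5 were higher and 4 lower (median 0.23), beside 8.63% and 10.5% of all genes tested. The counts were 8 and 5 with the block, 1 and 2 without replicate 2, 2 and 2 without replicate 3, and 1 and 2 after thinning (median -0.34). Pkp2, a plakophilin of the desmosome, stood at 48.1, 56.9 and 45.1 CPM against 17.0, 20.1 and 19.95 CPM (log2 fold change 1.45). Cdh1, the epithelial cadherin, and Gja4, a connexin of arteries, were lower by 2.49 and 3.48. Gja1, the main connexin of the adult ventricle, stood at 115, 88.2 and 97.7 CPM against 150, 120 and 118 CPM and did not pass, although it was lower with the block and without replicate 1. Gja5, the connexin of the conduction system, had 0 UMIs in the cardiomyocytes.

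Genes of energy metabolism were called in both directions, with 5 of 24 tested genes higher and 3 lower (median 0.05), beside 8.63% and 10.5% of all genes tested. The counts were 9 and 6 with the block, 0 and 4 without replicate 2, and 0 and 1 without replicate 3. Ldha, the lactate-producing dehydrogenase and the most abundant gene of the list, stood at 2297, 2188 and 2151 CPM against 1987, 1946 and 1904 CPM, a log2 fold change of 0.24 that did not pass without replicate 2 (adjusted p = 0.179) or replicate 3 (0.104). Slc2a3, the neuronal and embryonic glucose transporter, was lower by 1.64 at 167, 198 and 199 CPM against 588, 651 and 584 CPM. Slc2a1, the general glucose transporter, stood at 395, 465 and 468 CPM against 426, 358 and 380 CPM and did not pass, although it was higher with the block and without replicate 1. Of the listed genes known from mature muscle, Ckm, Ckmt2, Cox8b, Cpt1b, Mb and Pdk4 had 0 UMIs in the cardiomyocytes, whereas Eno3, the muscle enolase, was called higher. Eno3 lost its call without replicate 2 (adjusted p = 0.106) or replicate 3 (0.138).

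The cell cycle list held 5 higher and 2 lower genes among 31 tested (median 0.08), 7 in all, near the 19.1% called over all genes. The counts were 11 and 4 with the block, 4 and 1 without replicate 2, and 2 and 1 without replicate 3. Mki67, the proliferation marker, stood at 183, 177 and 184 CPM against 183, 178 and 172 CPM and did not pass. Top2a, which untangles DNA before mitosis, stood at 526, 440 and 431 CPM against 473, 377 and 420 CPM and passed with the block. Cdkn1c, the imprinted inhibitor p57 of cyclin-dependent kinases, stood at 791, 861 and 717 CPM against 151, 199 and 210 CPM (log2 fold change 2.14 ± 0.14, adjusted p = 3.86e-05). Cdk6, a kinase of the first gap phase, was higher by 1.14, whereas Cdkn1a, the inhibitor p21, was lower by 1.87. A difference in Mki67 was thus not detectable between classes that differed severalfold in Cdkn1c.

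The balance of genes of the second heart field and pharyngeal mesoderm depended on the setting. Of 24 tested genes 5 were higher and 2 lower (median 0.04), beside 8.63% and 10.5% of all genes tested. The counts were 9 and 8 with the block, and 2 and 2 without replicate 3. With 10 or more UMIs of Myl7 and Tnnt2 required they were 2 and 7 (median -0.34), and after thinning 2 and 6 (median -0.91). Isl1, the LIM factor of heart progenitors, stood at 94.0, 61.3 and 68.6 CPM against 25.7, 21.8 and 19.4 CPM (log2 fold change 1.80 ± 0.16, adjusted p = 0.00015). Tcf21, a factor of the epicardium and head muscle, was higher by 1.80 at 12.8, 8.39 and 7.05 CPM. Tbx1, the T-box factor of pharyngeal mesoderm, stood at 16.7, 12.8 and 18.3 CPM against 11.7, 9.10 and 8.81 CPM and was called higher by 0.74, but without replicate 3 the adjusted p was 0.174, and it changed sign when only cells with 10 or more UMIs of Myl7 and Tnnt2 were used (-0.16) and after thinning (-0.80).

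Among the largest differences of genes outside the lists of heart biology, Ccdc141, a titin-binding protein, was higher by 4.32 (log2) at 75.8, 70.8 and 43.2 CPM, and Pgam2, the muscle phosphoglycerate mutase, by 3.80. The splicing factors Rbm20 and Rbm24, which process sarcomere transcripts, were higher by 3.50 and 3.27. Rgs5, Sh3bgr, Rcsd1, Homer2 and Cap2 were higher by 2.40 to 3.14. Among such genes with at least 20 CPM in the other barcodes and the same sign in all 3 embryos, the largest lower differences were those of Pou3f1 of the neural plate (-3.63), Trh and Sox17 of the endoderm (-3.49 and -3.43), Dpp4, Eras, Spink1, Lmo2, Cldn7, Pim2 and Epcam, down to -2.90. Lmo2, of blood and endothelium, lost the call without replicate 3 (adjusted p = 0.0658).

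Markers of other cell types were checked as whole lists. The gate left out barcodes with Foxa2 or Sox2 or more than 1 UMI of Kdr, genes of endoderm, organizer, neural and endothelial cells, so lower levels of those lists are not independent of it. All 10 endoderm markers were lower (median -2.74), and their summed level was 181, 520 and 365 CPM in the cardiomyocytes of replicates 1, 2 and 3 against 1518, 3249 and 2441 CPM in the other barcodes. The most abundant of them was Ttr at a mean of 109 CPM, and it ranked the embryos alike in both classes, with 24.9, 204 and 99.8 CPM against 325, 1137 and 713 CPM, but its own call was lost without replicate 3 (adjusted p = 0.192). Of the 8 neural markers 7 were lower (median -3.40), with sums of 30.5, 22.3 and 33.7 CPM against 179, 130 and 137 CPM and Otx2 the most abundant, whose own call was lost without replicate 3 (adjusted p = 0.0922). All 5 markers of the left-right organizer were lower (median -4.27), with sums of 10.8, 12.7 and 22.3 CPM, mostly of T, but after thinning 2 of the 5 were called (median -2.58). Of 10 endothelial markers 6 were lower and 0 higher (median -2.39), with 4 lower without replicate 2 (median -3.25) and 3 lower without replicate 3. Their sums were 22.3, 30.7 and 36.4 CPM. Flt1 was the most abundant and lost its call without any 1 of the 3 embryos (adjusted p = 0.185, 0.0519 and 0.114 without replicates 1, 2 and 3). None of these lists had a member at 0 in the cardiomyocytes, and the part of free RNA in these levels was not tested.

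The 8 erythroid markers were far apart between embryos, with sums of 0.783, 100 and 18.7 CPM in the cardiomyocytes against 2.10, 1295 and 182 CPM in the other barcodes, mostly of Hbb-bh1. None passed, at a median of -3.16, and all 8 were lower with the embryo as a block. Of 9 paraxial mesoderm markers 4 were lower (median -0.88), 2 without replicate 2 or replicate 3, and the most abundant, Tcf15, stood at 28.8, 39.8 and 21.3 CPM against 39.7, 39.8 and 32.1 CPM and did not pass. Their sums were 106, 107 and 87.4 CPM against 200, 143 and 130 CPM. Of the 4 skeletal muscle markers Myod1 and Myog had 0 UMIs, and the sum was at most 0.427 CPM, so these factors of skeletal muscle were not detected. Of the 3 smooth muscle markers 2 were tested and higher, Cnn1 and Smtn, with sums of 20.7, 30.7 and 20.8 CPM against 11.4, 12.0 and 12.6 CPM. Smtn lost its call without replicate 2 (adjusted p = 0.118) or replicate 3 (0.109). The part of such cells in the results was not tested.

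Keratins and a lateral plate gene went the other way. Of 6 surface ectoderm markers, Wnt6, Dlx5, Tfap2a and Grhl3 were lower (Grhl3 not without any 1 embryo, adjusted p = 0.101, 0.118 and 0.0746 without replicates 1, 2 and 3) and Krt8 and Krt18, which are keratins of simple epithelia in general, were higher. Krt8 stood at 635, 717 and 742 CPM against 318, 360 and 339 CPM (log2 fold change 1.10 ± 0.09, adjusted p = 9.44e-05), and the sum of the list, mostly Krt8 and Krt18, was 1235, 1523.5 and 1523.1 CPM against 670, 809 and 733 CPM. Krt18 was higher by 1.02 and missed the threshold without replicate 3 (adjusted p = 0.0527). After thinning 1 of the 6 surface ectoderm markers was called higher and 3 lower. Of the 8 markers of lateral plate and allantois, Foxf1, a factor of splanchnic mesoderm, and Ahnak, a large scaffold protein under the membrane, were higher by 0.99 and 1.74, and Tbx4 and Hoxa10 were lower. After thinning Foxf1 was at -0.35 and Ahnak lost its call. Tbx4 did not pass without replicate 3 (adjusted p = 0.0882), and Hoxa10 did not without replicate 2 (0.0997) or replicate 3 (0.237). Their sums were 176, 261 and 217 CPM against 98.3, 131 and 136 CPM. The keratins and Ahnak were not evenly spread over the cardiomyocytes, as the next comparison shows.

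Within the cardiomyocytes, cells were grouped by how many of the 6 gate genes had a UMI, and genes outside the gate were read as a description with no test. Of 5814 such genes with at least 20 CPM in the cells with 3 or 6 gate genes, 1079 were higher in the cells with 6 than in those with 3 in every embryo and 1330 were lower in every embryo. At least 2-fold on average, 67 were higher and 56 lower. The genes named below were chosen after their values were seen. The groups were made from heart genes, so genes that vary with these are favoured in the upper groups. Tnnc1 stood at 23.1 ± 13.6, 64.7 ± 17.4, 116 ± 45.1 and 265 ± 119 CPM (SD, n = 3 embryos) in cells with 3, 4, 5 and 6 gate genes, and it increased at each step in all 3 embryos. Csrp3 went from 7.64 to 91.1 CPM and Ryr2 from 21.5 to 105 CPM by the same steps. Myl3 and Myh7 were found mostly in the upper groups, with 0.61 and 0.46 CPM in cells with 3 genes. In cells with 6, Myl3 stood at 14.2, 109.6 and 18.0 CPM and Myh7 at 40.9, 83.6 and 29.3 CPM in replicates 1, 2 and 3, so the mean of Myl3 rested mostly on replicate 2.

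Among 18 listed heart transcription factors with at least 20 CPM, 13 were higher with 6 gate genes than with 3 in all embryos. The other 5 were lower in all. Over all 5814 genes considered, 1079 were higher and 1330 lower in every embryo. Myocd stood at 14.8, 41.1, 84.8 and 150 CPM in cells with 3, 4, 5 and 6 gate genes and was similar in the 3 embryos, with 160, 156 and 133 CPM at 6 genes. Mef2c stood at 164, 315, 478 and 671 CPM and Tbx5 at 21.7, 45.2, 67.2 and 93.6 CPM, each higher at every step in every embryo. Gata4 went from 33.8 to 76.4 CPM and Tbx20 from 47.0 to 96.7 CPM. Hand2 went from 101 to 148 CPM and Isl1 from 60.4 to 86.7 CPM, with smaller gaps. Cdkn1c stood at 466, 728, 1044 and 1444 CPM, whereas Mki67 was at 186, 172, 178 and 185 CPM. The cells with the fullest sarcomere set thus had the highest level of the cell cycle inhibitor and a like level of the proliferation marker.

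**Figure D4:**
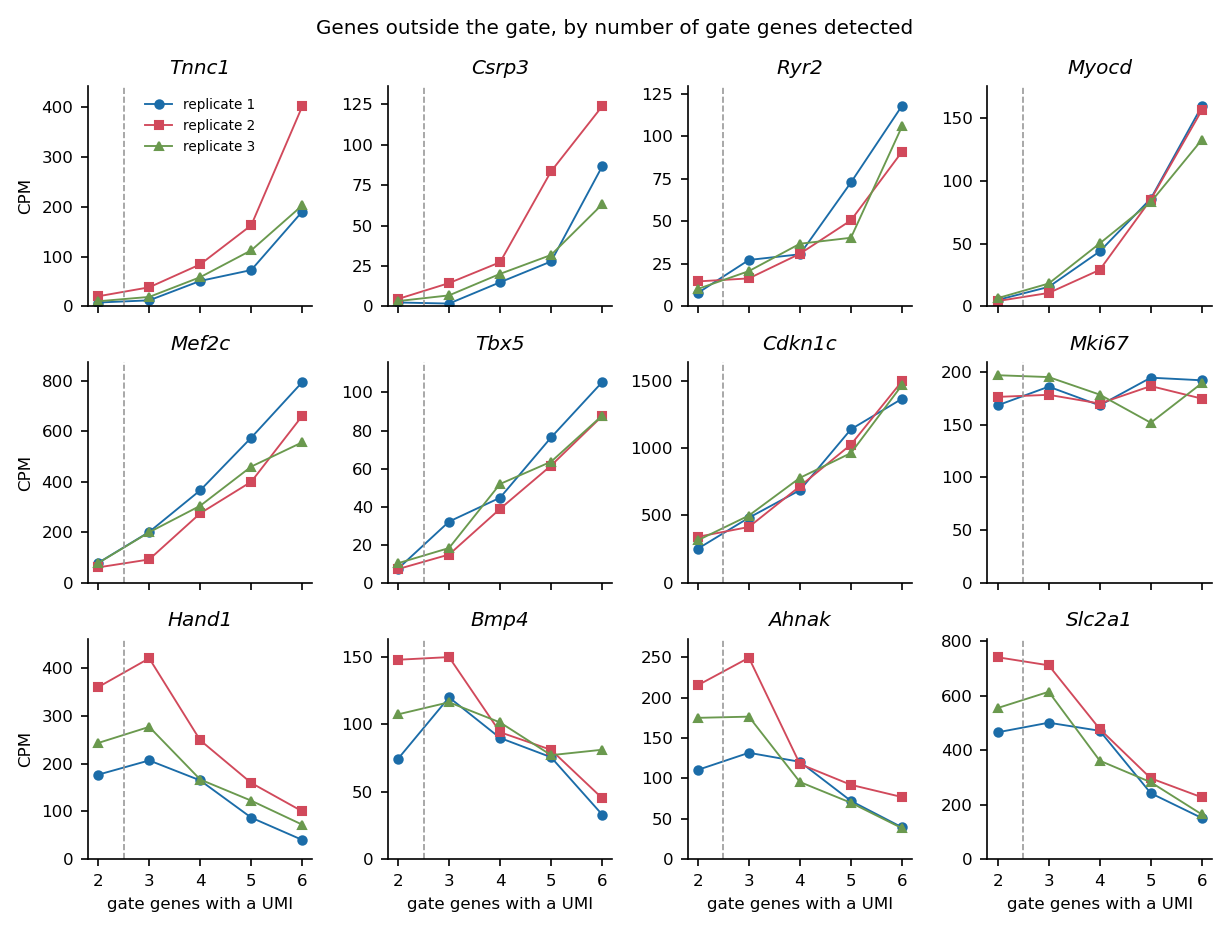
CPM of 12 genes outside the gate by the number of gate genes detected in the cell, with UMIs summed per embryo and group and 1 line for each embryo. The dashed line marks the edge of the gate, with the barcodes just outside it at 2. Tnnc1 to Cdkn1c increase from 3 to 6 genes, Mki67 stays near 180 CPM, and Hand1, Bmp4, Ahnak and Slc2a1 decrease.

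Another set of genes ran against this order. Hand1 stood at 301 ± 109, 193 ± 48.0, 123 ± 36.3 and 70.7 ± 30.0 CPM in cells with 3, 4, 5 and 6 gate genes, lower at each step in every embryo. In the barcodes just outside the gate it stood at 260 ± 92.9 CPM. Bmp4 stood at 129, 95.1, 77.9 and 53.1 CPM, Foxf1 at 72.8, 55.5, 47.4 and 18.2 CPM and Ahnak at 186, 111, 77.9 and 51.5 CPM. Krt8 went from 847 to 482 CPM and Krt18 from 904 to 452 CPM, so the keratins were highest in the cells with the fewest heart genes. Slc2a1 stood at 610, 437, 274 and 181 CPM, Pmp22, a membrane protein of many growing cells, at 462, 331, 223 and 119 CPM, and Dlk1, an imprinted Notch-like ligand, at 145, 98.4, 58.6 and 39.0 CPM. Tbx1 went from 23.1 to 2.97 CPM and Irx5 from 38.6 to 7.32 CPM. Bmp2, by contrast, went from 40.6 to 107 CPM, the reverse of Bmp4. Summed endoderm markers were at 417 ± 73.9 CPM in cells with 3 gate genes and 171 ± 140 CPM in cells with 6, and the part of free RNA or of other cell types in these differences was not tested.

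For a comparison with another class of mesoderm, cardiopharyngeal cells were taken as QC barcodes outside the cardiomyocyte gate with a UMI of Tbx1 and a UMI of Isl1 or Nkx2-5, no UMI of Foxa2 or Sox2, at most 1 UMI of Kdr, at most 1 of Epcam and at most 1 of Myl7 and Tnnt2 together. They numbered 64, 95 and 60 in replicates 1, 2 and 3, 219 in all, at a median of 16393 UMIs. The 9 genes of the cardiomyocyte gate and Tbx1, Isl1 and Epcam were fitted with the rest and are in the counts over all genes, but they are described with no test and left out of the list counts. Of 10158 genes tested, 576 were higher in the cardiomyocytes (5.67%) and 211 lower (2.08%), and 7.75% were called in either direction. With the embryo as a block the counts were 946 and 624. They were 363 and 114 without replicate 1, 332 and 101 without replicate 2, and 285 and 82 without replicate 3. The cardiomyocytes are the same cells as in the first comparison, and the 2 comparisons are not independent of each other. List counts against cardiopharyngeal cells stand beside the 5.67% and 2.08% over all genes.

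Contractile genes also differed from these neighbours, and the choice of cells favours this, since 1 class held at least 2 UMIs of Myl7 and Tnnt2 and the other at most 1. Of 20 tested sarcomere genes 15 were higher and 0 lower, with a median log2 fold change of 3.30 beside -0.01 for all genes tested. Among the tested genes, Csrp3 and Myh7 had no UMI in the cardiopharyngeal cells. They met the filter on low counts only through the cardiomyocytes, which favours higher calls. With no filter 30 of 37 tested genes were higher. Smyd1, a methyltransferase that helps to build sarcomeres, and Flnc, a filamin of the Z-disc, did not pass here (adjusted p = 0.0543 and 0.0659), although both did with the block. Tnni1 was higher by 2.88 ± 0.39 (adjusted p = 0.000545), with 12.6, 22.4 and 15.5 CPM in the cardiopharyngeal cells. Tagln was higher by 5.55 ± 0.57 (adjusted p = 6.39e-05) and Nexn by 3.39 ± 0.33 (adjusted p = 4.37e-05). Csrp3 had no UMI in any cardiopharyngeal sum and was at least 49.3-fold higher against a floor of 3 counts over the group, or 21.1-fold without replicate 2. Hcn4 had none either and was at least 9.47-fold higher, or 5.55-fold and 5.29-fold without replicate 1 or 2. Of 13 calcium and excitation genes 7 were higher (median 1.58), among them Ryr2 at 3.40 and Popdc2, which stood at 3.16, 2.10 and 1.94 CPM in the cardiopharyngeal cells. Hcn4 and Jph2 of this list had no UMI there and also met the filter only through the cardiomyocytes. With no filter 9 of 25 tested genes were higher.

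Many heart regulators also differed from the cardiopharyngeal cells. Of 25 tested heart transcription factors 14 were higher and 2 lower in the cardiomyocytes (median 0.93), and 11 to 12 were higher when 1 embryo was left out. Myocd was higher by 5.91 ± 0.33 (adjusted p = 8.47e-07), with 4 UMIs in all the cardiopharyngeal cells. Tbx20 was higher, with 4.74, 8.38 and 11.6 CPM in the cardiopharyngeal cells, and so were Mef2c by 2.78, Gata5 by 2.71 and Tbx5 by 2.60, and Hand2, Hand1 and Gata4 by 1.61, 1.78 and 1.29. Gata6 did not pass at 233, 189 and 200 CPM against 185, 172 and 185 CPM, although it was higher with the block. Meis1, a homeobox cofactor, did not pass either at 128, 90.9 and 105 CPM against 119, 110 and 114 CPM. Irx3 and Meis2 were lower by 1.79 and 0.77.

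**Figure D5:**
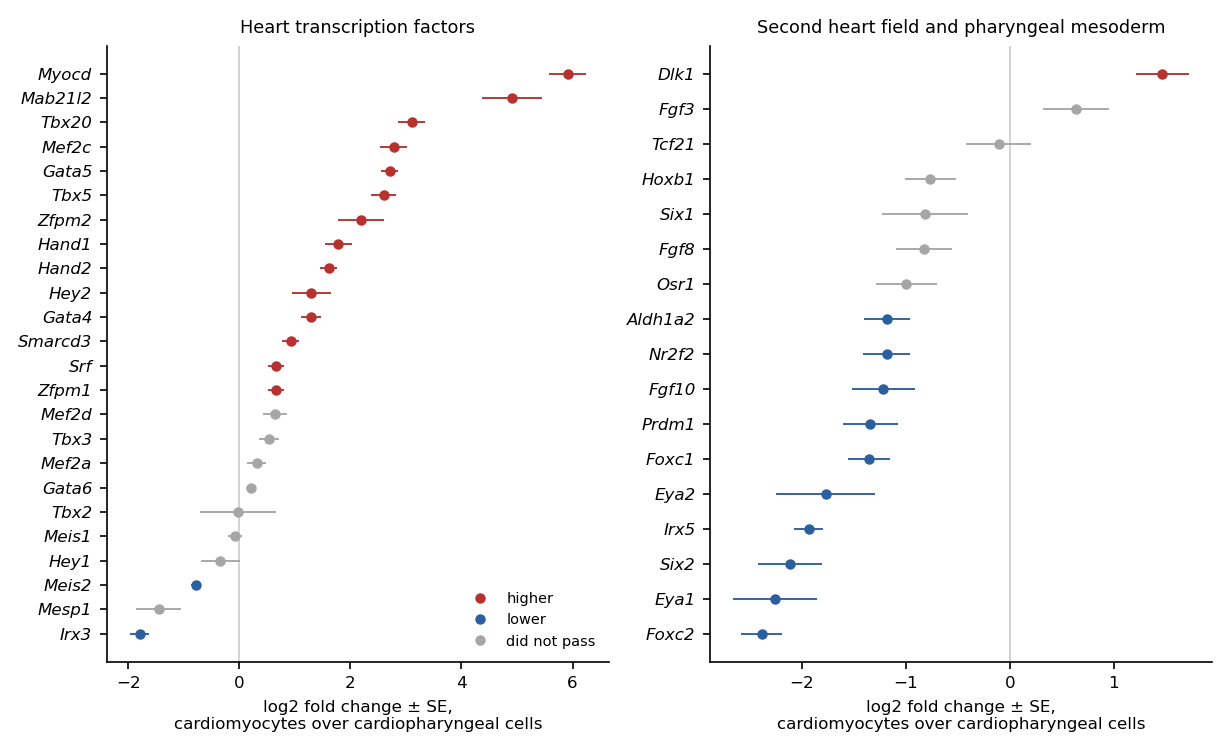
Log2 fold change ± SE of tested heart transcription factors (left) and of tested genes of the second heart field and pharyngeal mesoderm (right), cardiomyocytes over cardiopharyngeal cells. Red and blue points passed an adjusted p of 0.05 in edgeR's quasi-likelihood test. Myocd lies at 5.91 at the top of the left panel, and Foxc2 lies at -2.39 at the bottom of the right panel.

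The genes of the second heart field and pharyngeal mesoderm were mostly lower in the cardiomyocytes, and the choice of cells favours this. Each cardiopharyngeal cell had to hold a UMI of Tbx1, a gene of pharyngeal mesoderm, so genes that vary with Tbx1 are favoured in that class. Of 18 tested genes of the list, 11 were lower and 1 higher (median -1.18), but without replicate 3 only 6 of 19 were lower (median -0.99). Foxc2, a forkhead factor of head and somite mesoderm, stood at 22.0, 14.2 and 15.4 CPM against 117, 75.4 and 78.5 CPM (log2 fold change -2.39 ± 0.20, adjusted p = 1.07e-05). Six2, a homeobox factor of head mesenchyme, was lower by 2.11, the Iroquois factor Irx5 by 1.94 and Foxc1, the close relative of Foxc2, by 1.36. Eya1, a transcriptional coactivator of head and kidney mesoderm, was lower by 2.26 but not past the threshold without replicate 2 (adjusted p = 0.0605). Fgf10, a ligand of the second heart field, was lower by 1.22 but not without replicate 2 (adjusted p = 0.175) or replicate 3 (0.237). Aldh1a2, which makes retinoic acid, was lower by 1.18, but not past the threshold without replicate 3 (adjusted p = 0.13). Dlk1 was the one higher gene (1.47). Of 7 tested paraxial markers Tcf15, Meox1 and Foxc2 were lower, by 2.57, 2.26 and 2.39, with list sums of 106, 107 and 87.4 CPM against 543, 420 and 326 CPM. The other 4 tested paraxial markers did not pass, and the part of such cells in this comparison was not tested.

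Genes of signalling and junctions were called as well. Of 25 tested signalling genes 11 were higher and 2 lower (median 0.34), and 7 and 3 without replicate 1 and 8 and 0 without replicate 3. Bmp2 stood at 63.9, 49.2 and 51.0 CPM against 7.38, 3.49 and 4.84 CPM (log2 fold change 3.33 ± 0.23, adjusted p = 3.43e-06), and Wnt2 was higher by 2.32, Bmp5 by 1.59 and Bmp4 by 1.56. Sfrp5, at 3.94 against the whole embryo, was higher than in the cardiopharyngeal cells by only 1.06, with 50.6, 41.2 and 35.8 CPM there. The Wnt inhibitors Sfrp1 and Dkk1 were lower by 0.76 and 1.13, though neither passed without replicate 3 (adjusted p = 0.07 and 0.0815). Of 13 junction genes 5 were higher and 0 lower (median 0.55), or 7 and 1 with the block, among them Pkp2 at 2.54 and Jup, plakoglobin, at 2.27, both of the desmosome.

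The glucose transporters Slc2a1 and Slc2a3 were higher than in the cardiopharyngeal cells, with Slc2a1 at 395, 465 and 468 CPM against 150, 156 and 159 CPM (log2 fold change 1.53 ± 0.10, adjusted p = 1.83e-06) and Slc2a3 higher by 1.06. As given above, Slc2a1 was lower in cells with 6 gate genes than in cells with 3, and lay nearer the cardiopharyngeal level there. These transporters were the 2 calls among 20 tested metabolism genes (median 0.16), near the 7.75% called over all genes. With the block 4 metabolism genes were higher. Of 31 cell cycle genes 4 were higher and 3 lower (median -0.03), beside 5.67% and 2.08% of all genes tested. The counts were 5 and 7 with the block, 4 and 0 without replicate 2, and 3 and 0 without replicate 3. Cdkn1c was higher by 1.92 ± 0.11 (adjusted p = 8.47e-07), with 180, 229 and 226 CPM in the cardiopharyngeal cells. Krt8 and Krt18 were higher by 2.22 and 1.94, and with Wnt6, which passed in no fit that left out an embryo (adjusted p = 0.15, 0.201 and 0.0609 without replicates 1, 2 and 3), all 3 tested surface ectoderm markers were higher, with list sums of 1235, 1523.5 and 1523.1 CPM against 318, 345 and 369 CPM. The choice of cells may favour this, since only the cardiopharyngeal cells were limited to at most 1 UMI of Epcam. Ahnak and Pmp22, both lower in cells with 6 gate genes than in cells with 3, were higher by 3.58 and 3.55 in the whole class than in cardiopharyngeal cells, with 12.1, 10.5 and 8.72 CPM of Ahnak there.

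Of the other marker lists, 2 of 5 tested endothelial markers were higher than in the cardiopharyngeal cells and 0 lower (median 0.19). They were Flt1, a receptor of vascular endothelial growth factor, at 9.39, 9.24 and 12.4 CPM against 2.63, 3.49 and 1.94 CPM (log2 fold change 1.90, adjusted p = 0.00402), and Tek, the angiopoietin receptor, at 3.13, 7.54 and 3.05 CPM against 0.527, 0 and 0 CPM. The endothelial sums were 22.3, 30.7 and 36.4 CPM against 22.7, 23.1 and 68.8 CPM, and 1, 1 and 0 of the markers were called without replicates 1, 2 and 3. Both tested smooth muscle markers, Cnn1 and Smtn, were higher by 3.04 and 0.90, with list sums of 20.7, 30.7 and 20.8 CPM against 7.38, 10.5 and 9.69 CPM, and 0, 1 and 0 of them were called when the same embryos were left out. The endoderm markers had sums of 163, 502 and 341 CPM against 46.4, 224 and 481 CPM, and the classes overlapped. The part of such cells in this comparison was not tested.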

How the data were processed

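Per the labels, each library was made from 1 whole embryo with the 10x 3' chemistry (version 3), and the submitters' processing notes name Cell Ranger 3.1.0 and mm10. The deposited matrices hold UMI counts per gene and barcode, not normalized, over 31054 features. The 3 matrices held 6579, 8621 and 8333 barcodes, and the QC limits removed 1365 in all. The cardiomyocyte sums held 7666327, 7033125 and 5250484 UMIs. Members, gene lists and comparisons were chosen with earlier results of these data known.

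UMIs were summed per embryo and class and fitted in edgeR 4.0.16 (TMM, filterByExpr, quasi-likelihood test, Benjamini-Hochberg over all genes tested). CPM values are summed counts divided by the total UMIs of the sum and scaled to a fixed total. The fit was tested on simulated data, but the outcome is not given here and no result rests on it. The 2 classes of 1 number come from the same embryo, and deviations from the class means correlated within embryos (0.338, 0.294 and 0.184 against other barcodes, 0.389, 0.245 and 0.214 against cardiopharyngeal cells), so the embryo was also used as a block. The main fit has no block.

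Named genes were the gate genes, genes set by role, up to 5 further called members and 2 abundant uncalled members of each pathway list, and the 10 largest differences each way among genes of at least 20 CPM. Other list members, markers and the genes compared by number of gate genes were named after their values were seen. Doublets were not removed: Scrublet's own threshold called 0, 1 and 1 barcodes and so did not work, and leaving out the top 6% of its scores (43 cardiomyocytes) was an alternative. The others were DESeq2 1.42.0, no filter on low counts, the block, leaving out each embryo, stricter gates, thinning to 5000 UMIs with the gates applied anew, and leaving out barcodes under 0.5% mitochondrial UMIs. Embryos are separate animals of 1 group. Some members of the lists are counted with their list and not reported here by name.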

Additional observations from a re-analysis of the deposited data

Results flagged for a closer look

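The matrices list an EGFP feature, although all 3 embryos are labelled wild type. Over all deposited barcodes it had 31 UMIs in replicate 1, 0 in replicate 2 and 32 in replicate 3. It is given as a signal outside the measurements compared above.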

How the results depend on the processing

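Against all other barcodes, 1360 genes were higher and 1648 lower. The counts were 2554 and 2672 with the embryo as a block, 690 and 626 after thinning to 5000 UMIs, and 565 to 1043 and 500 to 1224 when 1 embryo was left out. Against cardiopharyngeal cells, 576 and 211 became 946 and 624 with the block, 903 and 319 with no filter on low counts, 148 and 57 after thinning, and 285 to 363 and 82 to 114 when 1 embryo was left out. With 10 or more UMIs of Myl7 and Tnnt2 required, 322 genes were lower. DESeq2, leaving out the top doublet scores and leaving out barcodes of low mitochondrial share kept every one of these counts within 1.5 times. The mean share of cardiomyocytes, 3.95%, was 2.43% with at least 4 gate genes, 2.51% with 10 or more UMIs of Myl7 and Tnnt2, and 2.31% after thinning. Of 165 named genes against all other barcodes, 87 kept their side of the threshold in all 11 alternatives, and their direction if called in the main fit. The direction of genes not called in the main fit was not compared. Of the called genes, 4 changed sign in at least 1 alternative: Tbx1 (-0.16 with 10 or more UMIs of Myl7 and Tnnt2, -0.80 after thinning), Prdm1 (-0.23 with 10 or more such UMIs), Cdh11 (-0.48 after thinning) and Foxf1 (-0.35 after thinning). Of 143 against cardiopharyngeal cells, 65 did the same in all 11. No gene called in the main fit changed sign where a value could be had, and after thinning 93 of the 143 had a value. With the block no named gene lost its call. The list counts in the report are those without the block, and the counts with it stand beside each list of heart biology whose calls moved by over 1.5 times in all. The cause of these changes was not tested. Thinning and leaving out an embryo leave fewer UMIs or sums, and the 219 cardiopharyngeal cells limit which genes can be tested against them.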
